A study of Mus musculus with 22 samples.

Results

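The galectin Lgals1, the annexins Anxa1, Anxa2, Anxa3 and Anxa5, the S100 genes S100a6, S100a10 and S100a11, the thymosin Tmsb10 and the intermediate filament gene Vim were followed in mouse liver, 10 genes of the 23227 in the deposited count tables. They were picked by symbol because Lgals1 and Anxa2 were already known from these same libraries to be higher on a high-fat diet in both mRNA and promoter acetylation. The diet differences of the 10 genes are therefore given below as a description with a standard error (SE). No p-value is given for them. How many of them pass the threshold is printed only beside the share of all features that do, as a description. Wild-type C57BL/6J mice on different diets were compared. The chow group ate a standard chow until it was killed at 24 weeks of age, and the other group was switched at 8 weeks to a high-fat diet for 16 weeks and was killed at the same age. All mice had fasted overnight, and the livers were freeze-clamped and ground to powder whole, so each library holds every cell type of the organ. Each diet has 3 mRNA libraries and 3 libraries of histone H3 acetylated at lysine 27 (H3K27ac), among 22 samples in all. The labels give the libraries of a diet replicate numbers but do not tie each to an animal, so p-values measure the spread between these samples only.

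Galectin-1, the product of Lgals1, is a small lectin that binds galactose-containing glycans on cell surfaces and matrix and is known in liver from stellate cells, macrophages and other non-parenchymal cells. Annexins bind phospholipid membranes when calcium is present. Most S100 proteins are small calcium sensors, and some S100 proteins fasten onto annexins. Annexin A2 forms a complex with S100a10 that binds plasminogen activator and plasminogen, and annexin A1 pairs with S100a11. Thymosin beta 10 sequesters actin monomers, and vimentin builds the intermediate filaments of mesenchymal cells and leukocytes. H3K27ac marks active promoters and enhancers.

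RefSeq promoter sequences of the build GRCm38.p6 were matched to 7 of the 10 genes by symbol, with 9 windows of 250 bases that end just before an annotated start. Lgals1, Anxa3 and S100a10 had no entry. The windows of Anxa2, S100a6, S100a11 and Vim are shown as examples of how the windows differ in their motifs. Each is written 5′ to 3′ along the gene, in lower case, with the matches to any of 5 motifs in capitals:

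Anxa2 (chr9:69453433-69453682, plus strand): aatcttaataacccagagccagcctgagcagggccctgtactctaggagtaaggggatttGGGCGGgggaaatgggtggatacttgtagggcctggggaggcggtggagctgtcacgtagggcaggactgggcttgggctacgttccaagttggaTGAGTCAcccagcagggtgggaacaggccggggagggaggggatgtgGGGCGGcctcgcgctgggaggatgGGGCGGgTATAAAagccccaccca

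S100a6 (chr3:90612644-90612893, plus strand): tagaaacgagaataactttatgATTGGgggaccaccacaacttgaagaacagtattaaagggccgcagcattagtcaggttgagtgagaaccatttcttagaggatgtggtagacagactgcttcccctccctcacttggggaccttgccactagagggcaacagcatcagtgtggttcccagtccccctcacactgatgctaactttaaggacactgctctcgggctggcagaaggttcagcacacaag

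S100a11 (chr3:93520246-93520495, plus strand): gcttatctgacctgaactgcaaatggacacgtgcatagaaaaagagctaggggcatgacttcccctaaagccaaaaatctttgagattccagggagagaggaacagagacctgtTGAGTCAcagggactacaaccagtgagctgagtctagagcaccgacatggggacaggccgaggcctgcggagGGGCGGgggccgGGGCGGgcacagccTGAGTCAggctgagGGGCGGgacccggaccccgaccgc

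Vim (chr2:13574061-13574310, plus strand): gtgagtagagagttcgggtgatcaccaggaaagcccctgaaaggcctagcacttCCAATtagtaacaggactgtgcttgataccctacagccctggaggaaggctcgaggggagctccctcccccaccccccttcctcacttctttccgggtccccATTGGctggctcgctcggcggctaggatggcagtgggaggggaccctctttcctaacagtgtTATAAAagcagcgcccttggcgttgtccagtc

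The motifs were searched on both strands and do not overlap in these 4 windows. The TATA box (TATAAA) stood in the windows of Anxa1, Anxa2 and Vim, and in 12.4% of the 32851 RefSeq windows. The GC box (GGGCGG) occurred in windows of Anxa2, S100a11 and Tmsb10, and in 32.7% of all windows. The CCAAT box (CCAAT) occurred for S100a6 and Vim, and in 33.8% of all windows. The AP-1 motif (TGANTCA) was found once for Anxa2, 95 to 89 bases before the start, and at 2 places for S100a11, 136 to 130 and 38 to 32 bases before it, against 6.75% of all windows. The TEAD motif (GGAATG) was found for Anxa1 alone among the 7 genes, and in 12.6% of all windows. These are matches of letters and do not show a bound site. The CpG count was 9 for Anxa2, 11 for S100a11, 8 for Vim and 3 for S100a6, beside a median of 6 over all windows.

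Reads counted on genes totalled 19016275 to 45741794 per mRNA library and those on promoters 1967613 to 4964403 per H3K27ac library. Levels are CPM, counts per 1000000 after scaling by trimmed mean of M-values (TMM) factors. All 10 genes passed the count filter in both tables, among 12909 genes and 20891 promoters. The hepatocyte list (7 of 8 genes in the table, led by Alb) summed to 86571 to 93472 CPM on chow and 87840 to 111164 CPM on the high-fat diet. The exocrine pancreas list summed to 331 to 1983 CPM on chow and 10.3 to 190 CPM on the high-fat diet, and 10 of its 12 tested genes fell (edgeR; the DESeq2 test called 4). Its part in the results below was not tested.

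In mRNA, Lgals1, Anxa2 and Tmsb10 were higher in every high-fat-diet library than in any chow library, by 7.56-fold, 3.21-fold and 2.65-fold. Vim, S100a6 and S100a11 were higher on average, but their groups overlapped. Anxa1, Anxa3, Anxa5 and S100a10 differed by less than 1.5-fold in either direction. Lgals1, Anxa2 and Tmsb10 are also the 3 of the 10 genes past an adjusted p of 0.05 in edgeR's quasi-likelihood test, a threshold that 35.6% of all tested genes passed. Nothing is read from that count, since these libraries chose the genes. Of all tested genes, 25.1% had every high-fat-diet library above every chow library and 25.5% had every one below, against 3 and 0 of the 10 genes.

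The level of Lgals1 was 7.43, 6.01 and 3.87 CPM in chow replicates 1, 2 and 3, and 28.7, 38.9 and 66.5 CPM in high-fat-diet replicates 1, 2 and 3. The groups stayed far apart, and the high-fat-diet libraries also spread more widely than the chow ones. The means were 5.77 CPM (SD 1.79, n = 3) and 44.7 CPM (SD 19.6, n = 3), with a log2 fold change of 2.92 ± 0.34 (SE). Without high-fat-diet replicate 3 the log2 fold change of Lgals1 was 2.51.

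Anxa2, the membrane-binding partner of S100a10, stood at 7.45, 8.15 and 8.60 CPM on chow and at 17.0, 17.8 and 42.6 CPM on the high-fat diet. The chow libraries lay close together, and the third high-fat-diet library was more than the other two combined. The log2 fold change of Anxa2 was 1.68 ± 0.34 (SE), and 1.12 without high-fat-diet replicate 3. The other annexins of the set did not part the diets. Anxa5, which binds exposed phosphatidylserine, was measured at 67.8, 67.6 and 66.7 CPM on chow and at 57.5, 65.3 and 115 CPM on the high-fat diet. Anxa1, an anti-inflammatory ligand of formyl peptide receptors, was measured at 3.05, 2.41 and 3.12 CPM on chow and at 1.91, 3.41 and 4.97 CPM on the high-fat diet. Anxa3 was at 4.22, 4.45 and 4.14 CPM on chow and at 2.89, 3.22 and 4.97 CPM on the high-fat diet. In each of these 3 annexins, high-fat-diet replicate 3 was the highest of all 6 libraries and high-fat-diet replicate 1 the lowest. Their log2 fold changes were 0.23 ± 0.23 (SE) for Anxa5, 0.26 ± 0.31 for Anxa1 and −0.21 ± 0.21 for Anxa3. Without high-fat-diet replicate 3 they were −0.13, −0.10 and −0.48, so the sign of Anxa5 and Anxa1 rested on that library.

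The S100 genes of the set overlapped between the diets in mRNA. S100a10, the light chain of the annexin A2 complex, was at 90.2, 99.9 and 95.0 CPM on chow and at 82.8, 74.4 and 100.3 CPM on the high-fat diet, a log2 fold change of −0.15 ± 0.11 (SE). Without high-fat-diet replicate 3 the log2 fold change of S100a10 was −0.27 ± 0.09 (SE), and the remaining high-fat-diet libraries lay below every chow library. Its level thus overlapped between the diets only through that library, while that of Anxa2 did not overlap. S100a11, the partner of annexin A1, was at 4.49, 3.76 and 4.03 CPM on chow and at 4.01, 4.94 and 10.7 CPM on the high-fat diet. Its log2 fold change of 0.67 ± 0.34 (SE) was 0.12 without high-fat-diet replicate 3. S100a6, a calcium sensor known from fibroblasts and epithelia, was at 1.06, 0.536 and 0.968 CPM on chow and at 1.03, 1.49 and 2.91 CPM on the high-fat diet. These rest on 10 to 47 counts per chow library and 22 to 65 per high-fat-diet library. The log2 fold change of S100a6 was 1.03 ± 0.42 (SE), and 0.52 without high-fat-diet replicate 3.

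Of the cytoskeletal genes, Tmsb10 differed most evenly. It was at 2.26, 2.09 and 2.20 CPM on chow and at 4.43, 5.92 and 7.07 CPM on the high-fat diet, with a log2 fold change of 1.405 ± 0.20 (SE) that was 1.24 without high-fat-diet replicate 3. Every high-fat-diet library was clear of the chow range. Vim was at 16.3, 13.3 and 13.6 CPM on chow and at 13.7, 25.6 and 39.3 CPM on the high-fat diet. High-fat-diet replicate 1 lay inside the chow range of Vim, and the other two libraries lay above it. The log2 fold change of Vim was 0.86 ± 0.32 (SE), and 0.44 without high-fat-diet replicate 3. Thymosins and S100 genes belong to families with related copies, and how the authors' counting treated reads that match several copies is not given in the sources used here.

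**Figure D1:**
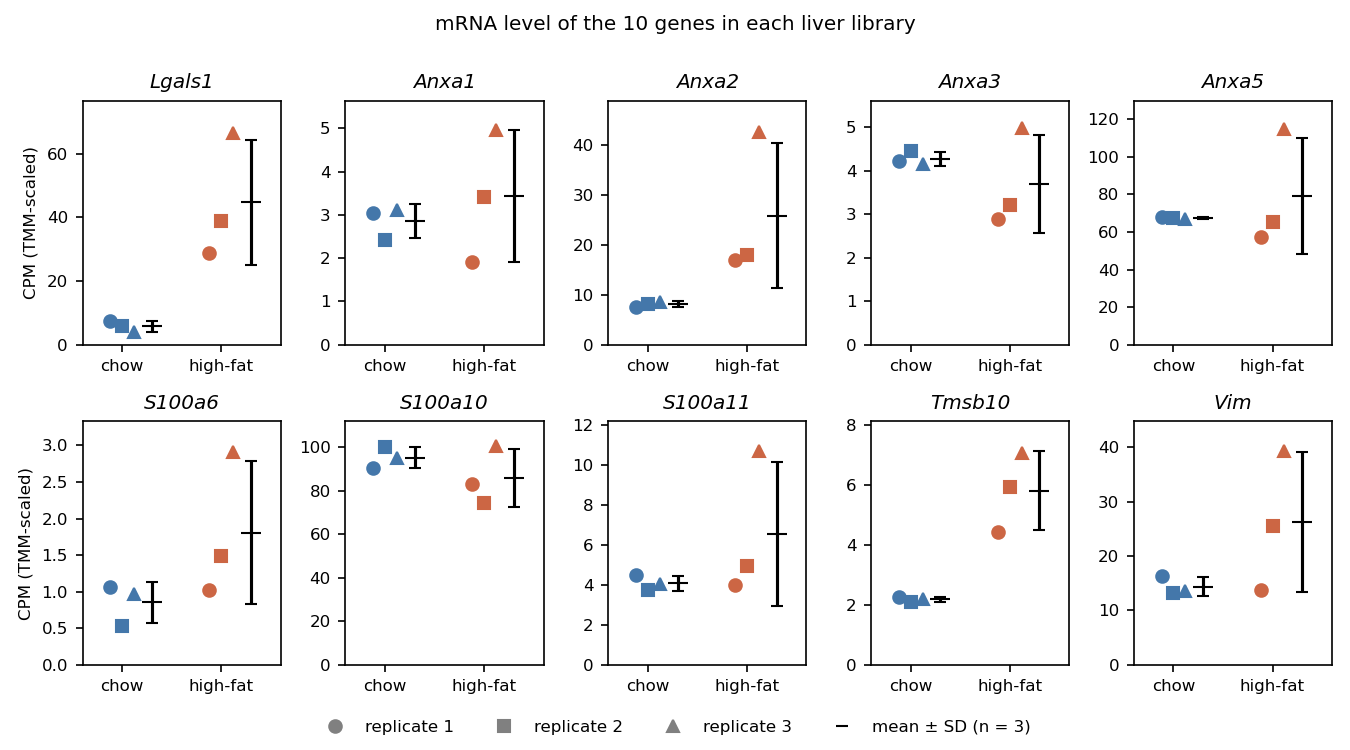
mRNA level of each of the 10 genes in TMM-scaled CPM (vertical axis, from 0) for chow and high-fat-diet libraries (n = 3 each), with the replicate number as the point shape and the mean ± SD beside the points. High-fat-diet replicate 3 (triangle) is the highest high-fat-diet library in all 10 panels, and only Lgals1, Anxa2 and Tmsb10 have every high-fat-diet point above every chow point.

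High-fat-diet replicate 3 was the highest of the 3 high-fat-diet libraries in 10 of 10 genes, against 35.8% of all tested genes, and it was also the highest of all 6 libraries for each of the 10. High-fat-diet replicate 1 was the lowest of its diet in 9 of 10, against 35.2% of all tested genes. The ratio of high-fat-diet replicate 3 to the mean of the other two had a median of 1.92 over the 10 genes and 1.001 over all tested genes, and it was over 1.5 in 8 of the 10 and in 5.80% of all genes. Within chow the 10 genes were as even as other genes, with a median SD of log2 CPM of 0.12 for both. Within the high-fat diet the median SD was 0.64 for the 10 genes and 0.16 for all tested genes. The median log2 fold change of the 10 genes was 0.76 (0.02 over all tested genes), with 8 above 0 and 2 below. This is a description only, since these libraries chose the genes. The median of the 10 genes was 0.28 without high-fat-diet replicate 3, with 6 of the 10 above 0.

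Markers of other liver cell types were summed in the same libraries. The infiltrating macrophage list, 8 of 9 genes tested and led by Spp1, summed to 47.4, 38.0 and 42.0 CPM on chow and to 46.8, 53.1 and 88.8 CPM on the high-fat diet. Spp1 held 65.4% of this summed level over all libraries. The highest library of the sum was high-fat-diet replicate 3, as for the 10 genes. Among the high-fat-diet libraries, 7 of the 8 tested genes were highest there. Of the tested genes 5 rose (Ccr2, Cd68, Gpnmb, Itgax and Cx3cr1, named after their values were seen), and Spp1 was not among them. Of all tested genes 35.6% passed in either direction. In the list 1 gene passed without high-fat-diet replicate 3. The stellate cell list, 11 of 11 tested and led by Dcn, summed to 360, 366 and 364 CPM on chow and to 245, 393 and 545 CPM on the high-fat diet. Among the high-fat-diet libraries its order, lowest in replicate 1 and highest in replicate 3, was that of 9 of the 10 genes. Among the high-fat-diet libraries, 6 of its 11 genes were highest in replicate 3. Of the 11 genes 2 rose, 1 fell and 8 did not pass, where 35.6% of all tested genes passed in either direction. The fibrillar collagen genes Col1a1 and Col3a1 rose and Dcn fell, with Col1a1 at 4.48, 8.59 and 33.2 CPM in high-fat-diet replicates 1 to 3 (the collagens were named after their values were seen). Their part in the differences of the 10 genes was not tested, and in whole liver fewer cells of a type and less RNA per cell cannot be told apart.

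The remaining lists are given by the range of their sums. For Kupffer cells the sums ranged from 251 to 463 CPM on chow and from 306 to 564 CPM on the high-fat diet, and 0 of 10 tested genes passed the threshold in edgeR or DESeq2, with 1 at an unadjusted p under 0.05 in edgeR. Of all 12909 tested genes 6020 had an unadjusted p under 0.05 in edgeR. The sinusoidal endothelial list ranged from 303 to 453 CPM and from 331 to 550 CPM, with 0 of 9 past the threshold by either tool and 2 at an unadjusted p under 0.05 in edgeR. The cholangiocyte list ranged from 20.9 to 25.6 CPM and from 16.9 to 22.4 CPM, with 1 of 5 tested genes lower. The mesothelial list ranged from 4.41 to 6.50 CPM and from 3.45 to 6.27 CPM, with 0 of 3 past the threshold, and within the high-fat diet it too was lowest in replicate 1 and highest in replicate 3. The T and B lymphocyte list ranged from 2.52 to 5.35 CPM and from 4.30 to 4.66 CPM, with 0 of 5 past it. Neutrophil markers ranged from 3.21 to 7.58 CPM and from 5.32 to 6.20 CPM, with 0 of 3 past it. In the mesothelial, lymphocyte and neutrophil lists 0 genes passed by DESeq2 either, and 0 had an unadjusted p under 0.05 in edgeR. The adipocyte list ranged from 6.13 to 9.30 CPM and from 16.7 to 27.3 CPM without overlap, with 1 of 2 tested genes higher. The red blood cell list held the globin genes Hbb-b1, Hbb-b2, Hba-a1 and Hba-a2 at 0 in all mRNA libraries, while Alas2 rose. The values of 0 are not read as absence of globin mRNA, since how reads that match several copies were counted is not given. Of the 12 marker lists, the stellate and infiltrating macrophage lists were those with their highest sum of all 6 libraries in high-fat-diet replicate 3.

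**Figure D2:**
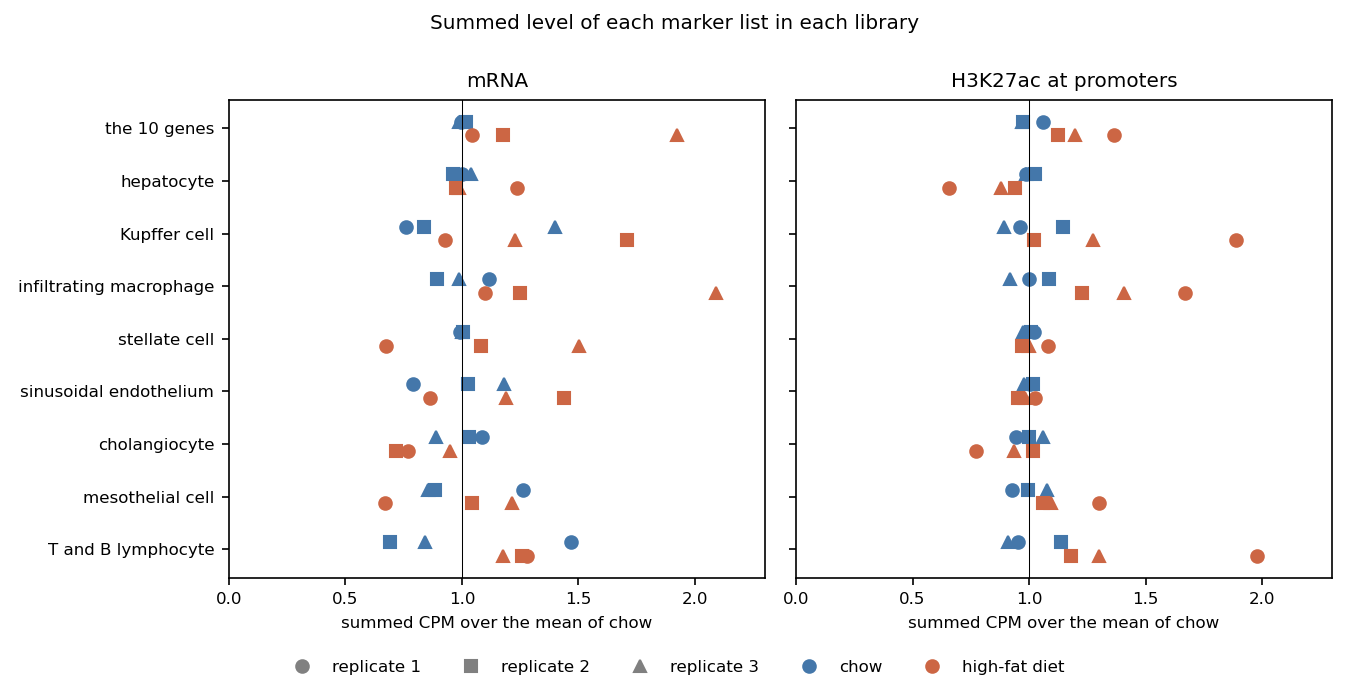
Summed CPM of the 10 genes and of 8 marker lists in each library, divided by the mean of the chow libraries (horizontal axis, linear), for mRNA on the left and promoter H3K27ac on the right, with diet as colour and replicate number as shape. In mRNA the 10 genes, the infiltrating macrophage list and the stellate cell list have their highest library in high-fat-diet replicate 3, while at promoters the 10 genes and, among other lists, those of infiltrating macrophages, Kupffer cells and lymphocytes have theirs in high-fat-diet replicate 1.

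At promoters, H3K27ac was higher in every high-fat-diet library than in any chow library for Lgals1, Anxa2, S100a6 and Vim, and lower in every one for S100a10. The differences were 1.55-fold for Lgals1, 1.54-fold for Anxa2, 1.90-fold for S100a6 and 1.29-fold for Vim. Lgals1, Anxa2 and S100a6 passed an adjusted p of 0.05 in edgeR, a threshold that 0.235% of all promoters passed. With 1 library left out these calls did not all stand. Without chow replicate 1 or 2, 0 of the 10 passed, beside 0.00474% and 0% of all promoters. Only Lgals1 passed without chow replicate 3 or high-fat-diet replicate 3 (0.0332% and 0.038% of all). All 3 passed without high-fat-diet replicate 1 or 2 (0.45% and 3.5% of all). Nothing is read from these counts either, since this is the contrast that chose the genes. Groups did not overlap with the high-fat diet higher in 9.77% of all promoters and with it lower in 9.73%, against 4 and 1 of the 10.

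Promoter H3K27ac of Lgals1 was 77.6, 68.4 and 78.0 CPM on chow and 116, 111 and 123 CPM on the high-fat diet. Both groups were tight, and the gap between them exceeded the spread within each. The log2 fold change of Lgals1 was 0.63 ± 0.09 (SE). Anxa2 had 50.5, 42.1 and 39.4 CPM on chow and 74.7, 65.3 and 65.8 CPM on the high-fat diet, a log2 fold change of 0.62 ± 0.11 (SE). The authors' deposited table gives log2 fold changes of 0.58 for the promoter of Lgals1, 0.54 for Anxa2 and 0.57 for S100a6. In its order of 23167 promoters Lgals1 is at place 1 and Anxa2 at place 19, but S100a6 is at place 23033. What sets that order was not examined here.

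The remaining annexin promoters differed little. Anxa5 had 86.2, 80.4 and 76.2 CPM on chow and 85.1, 72.0 and 94.4 CPM on the high-fat diet. Anxa3 had 28.5, 29.2 and 22.6 CPM on chow and 27.4, 25.5 and 28.0 CPM on the high-fat diet. In both the diets overlapped, with log2 fold changes of 0.05 ± 0.10 (SE) and 0.02 ± 0.16. Anxa1 had the weakest signal, with 9.58, 3.44 and 8.62 CPM on chow and 13.9, 7.97 and 8.68 CPM on the high-fat diet, and a log2 fold change of 0.33 ± 0.30 (SE).

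Among S100 promoters, S100a6 had 25.2, 28.8 and 21.97 CPM on chow and 70.2, 34.0 and 43.7 CPM on the high-fat diet. High-fat-diet replicate 1 stood well above the other two, and the lowest of them was still above chow. The log2 fold change of S100a6 was 0.93 ± 0.19 (SE), and 0.64 without that library. S100a11 had 40.0, 34.8 and 30.2 CPM on chow and 46.8, 42.2 and 36.1 CPM on the high-fat diet, overlapping ranges with a log2 fold change of 0.24 ± 0.14 (SE). S100a10 had 113.8, 108.3 and 115.6 CPM on chow and 106.0, 107.6 and 101.7 CPM on the high-fat diet. The groups were parted by less than 1 CPM, and the log2 fold change was −0.10 ± 0.09 (SE).

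Tmsb10, higher in mRNA, showed no matching difference at its promoter. It had 41.6, 41.7 and 41.5 CPM on chow and 54.3, 37.2 and 34.7 CPM on the high-fat diet, so that one high-fat-diet library lay above the narrow chow range and the other two below it. The log2 fold change was −0.03 ± 0.14 (SE). Vim had 56.1, 48.6 and 49.9 CPM on chow and 87.1, 58.2 and 61.1 CPM on the high-fat diet, a log2 fold change of 0.36 ± 0.12 (SE) that was 0.20 without high-fat-diet replicate 1.

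**Figure D3:**
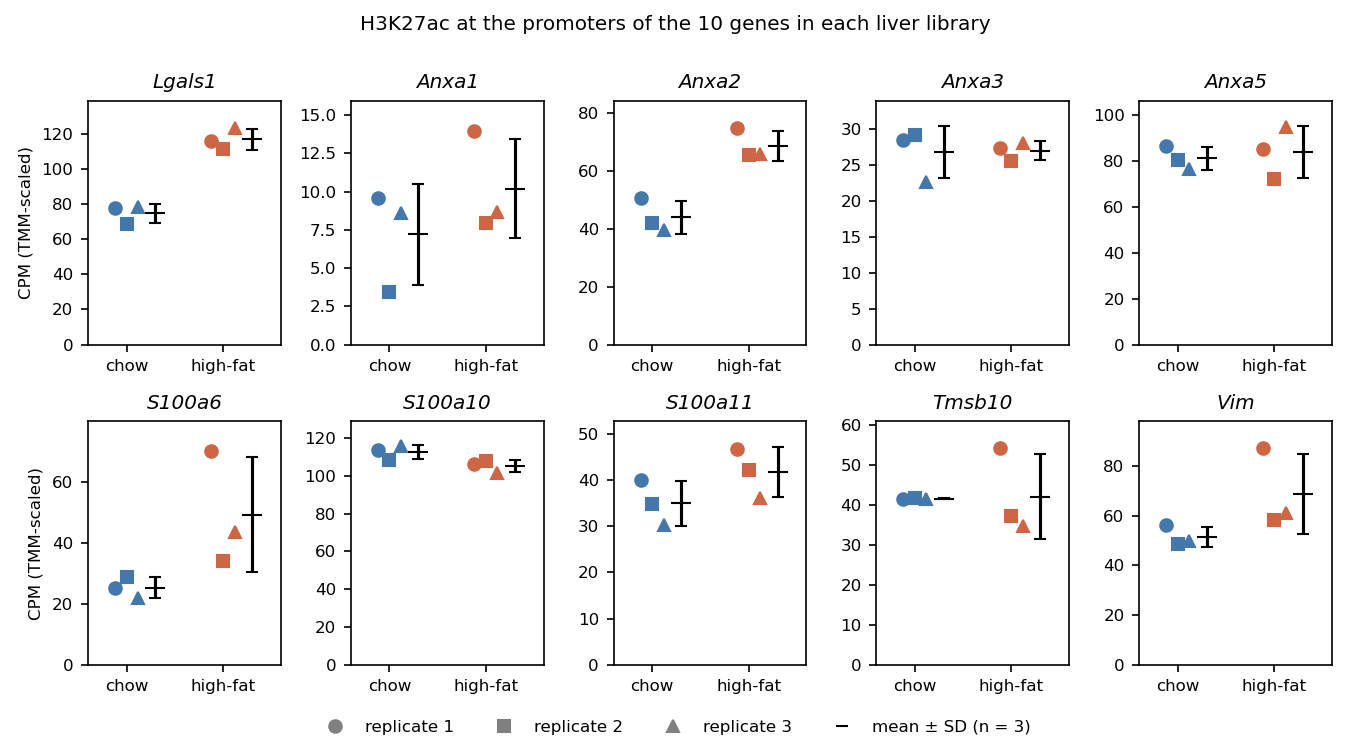
H3K27ac at the promoter of each of the 10 genes in TMM-scaled CPM (vertical axis, from 0) for chow and high-fat-diet libraries (n = 3 each), drawn as for mRNA with the mean ± SD beside the points. Lgals1, Anxa2, S100a6 and Vim have every high-fat-diet point above chow, and high-fat-diet replicate 1 (circle) is the highest of its diet in 6 panels.

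High-fat-diet replicate 1 was the highest of its diet at 6 of the 10 promoters (38.5% of all promoters) and replicate 3 at 3. In mRNA the first was the lowest for 9 genes and the third the highest for all 10. The labels do not say whether equal numbers in both assays stand for one liver. The median promoter log2 fold change of the 10 genes was 0.28, beside −0.003 over all promoters, with 8 above 0 and 2 below. This too is a description only, since these libraries chose the genes. At promoters the infiltrating macrophage list summed to 154 to 183 CPM on chow and 207 to 281 CPM on the high-fat diet, highest in replicate 1 as for 6 of the 10 genes, and 1 of its 9 genes (Cd68) rose in edgeR, while DESeq2 called 0 and 8 had an unadjusted p under 0.05 in edgeR. The T and B lymphocyte list summed to 124 to 155 CPM and 161 to 270 CPM, with 8 of 9 genes under that unadjusted p. For the Kupffer list the sums were 129 to 166 CPM and 147 to 272 CPM, with 4 of 9 under it. The neutrophil list summed to 144 to 163 CPM and 178 to 218 CPM, with 4 of 7 under it. The red blood cell list summed to 17.2 to 22.4 CPM and 27.4 to 34.3 CPM, with 4 of 5 under it. Of all 20891 promoters 2924 were under it. In these lists 0 genes passed the threshold in edgeR, and each sum was highest in high-fat-diet replicate 1. That library had the fewest reads on promoters, 1967613. The hepatocyte list summed to 588 to 612 CPM on chow and 392 to 561 CPM on the high-fat diet and was lowest in that library. The stellate list summed to 178 to 186 CPM and 177 to 198 CPM. Its sum and those of the mesothelial, sinusoidal endothelial and exocrine pancreas lists were also highest in high-fat-diet replicate 1. The cholangiocyte and adipocyte sums were the lowest of their diet there. The part of these cell types in the promoter differences was not tested, nor was that of the low read total of high-fat-diet replicate 1.

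With 1 library left out at a time, the promoter log2 fold change ran from 0.59 to 0.67 for Lgals1, from 0.53 to 0.75 for Anxa2, from 0.64 to 1.15 for S100a6 and from 0.20 to 0.47 for Vim. For S100a6 and Vim the lowest value was the one without high-fat-diet replicate 1.

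**Figure D4:**
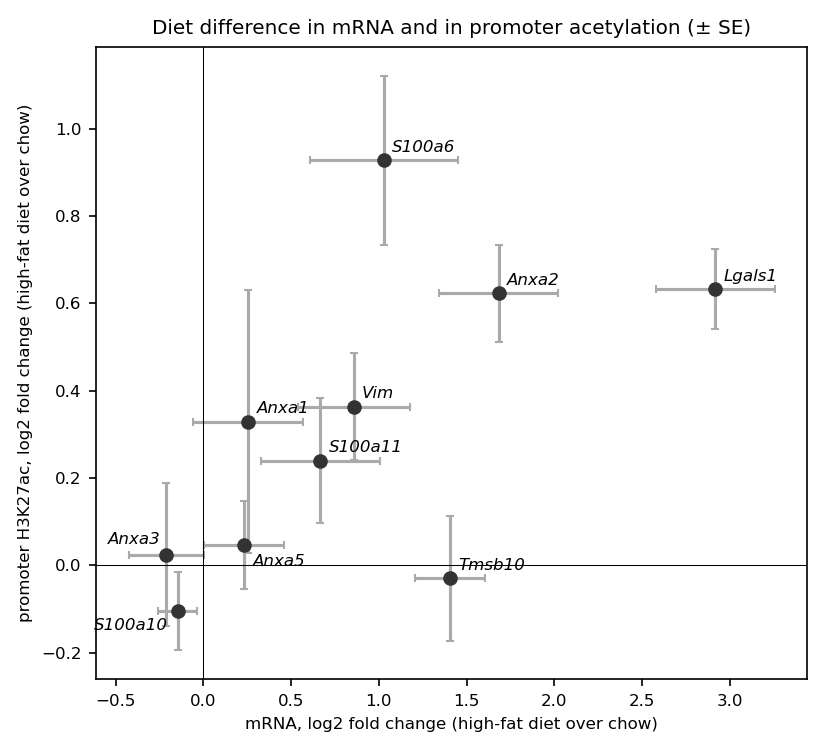
Log2 fold change of high-fat diet over chow in mRNA (horizontal axis) and in promoter H3K27ac (vertical axis) for each of the 10 genes, with bars of ± 1 SE from the edgeR fits. Lgals1 and Anxa2 lie at similar promoter differences (0.63 and 0.62) and different mRNA differences (2.92 and 1.68), while Tmsb10 lies at a promoter difference of −0.03 and S100a10 below 0 on both axes.

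Related genes outside the 10 were tested in the same mRNA fit (edgeR, adjusted over all 12909 genes). Of 76 genes in 6 lists 63 were tested, 17 rose and 4 fell, with a median log2 fold change of 0.28 beside 0.02 for all genes and 35.6% of all genes called. Among the other annexins 3 of 7 tested rose and 4 did not pass. Anxa11, which binds RNA granules and lysosomes, went from 26.3 to 30.8 CPM on chow to 49.4 to 53.5 CPM on the high-fat diet, a log2 fold change of 0.86 ± 0.09 (SE, edgeR adjusted p = 0.000303). Anxa4, a membrane-binding annexin of epithelia, rose by 0.54 ± 0.10 (SE, edgeR adjusted p = 0.00351). Anxa8 rose by 3.07 ± 0.45 (SE, edgeR adjusted p = 0.00159) from 8, 1 and 2 counts on chow to 18, 26 and 35 counts. At 0.18, 0.05 and 0.11 CPM on chow, Anxa8 passed the count filter only through its high-fat-diet libraries. Its p-value is therefore given as a description only.

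The other S100 genes gave 2 rises among 6 tested in edgeR and 0 calls in DESeq2, and S100a5 and S100z were at 0 in all mRNA libraries. S100a4, known from fibroblasts and macrophages, rose by a log2 of 1.17 ± 0.36 (SE, edgeR adjusted p = 0.0341) on 4 to 22 counts per library, and S100a16 by 0.31 ± 0.09 (SE, edgeR adjusted p = 0.0257). Like Anxa8, S100a4 passed the count filter only through its high-fat-diet libraries. Among the other galectins 1 of 5 tested rose and 2 fell. Galectin-3 (Lgals3), abundant in macrophages, was at 3.43, 3.86 and 5.27 CPM on chow and 5.27, 6.94 and 10.7 CPM on the high-fat diet, a rise of 0.88 ± 0.27 (SE, edgeR adjusted p = 0.0366). Galectin-8 (Lgals8), which detects damaged endosomes and lysosomes, went from 221 to 224 CPM on chow to 134 to 142 CPM on the high-fat diet, a log2 fold change of −0.69 ± 0.07 (SE, edgeR adjusted p = 0.000269). The galectin-like gene listed as 1110067D22Rik (Lgalsl) had a log2 fold change of −0.41 ± 0.12 (SE, edgeR adjusted p = 0.027). Lgals8 thus moved opposite to Lgals3.

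Of 14 tested partners of these proteins 3 rose and 1 fell. Lgals3bp, a secreted glycoprotein that binds galectins, rose by a log2 of 1.20 ± 0.11 (SE, edgeR adjusted p = 0.000248), from 51.0 to 60.7 CPM on chow to 117 to 149 CPM on the high-fat diet. Fibronectin (Fn1), a matrix and plasma protein that galectin-1 binds, rose by 0.76 ± 0.12 (SE, edgeR adjusted p = 0.00191), and the receptor Nrp1 by 0.45 ± 0.12 (SE, edgeR adjusted p = 0.0194). Itgb1, the integrin beta 1 chain, had a log2 fold change of −0.50 ± 0.08 (SE, edgeR adjusted p = 0.00245). Among 20 genes of actins and actin-binding proteins 6 rose and 1 fell. The largest increases were in Capg (0.98), which caps filament ends, Tagln2 (0.84) and the leukocyte gene Lsp1 (0.80), and the decrease was in the actin bundler Lcp1 (−0.26). Among 11 other intermediate filament genes 2 rose, Nes (1.03), the nestin gene, and Krt8 (0.69), a keratin of hepatocytes. The calls of 10 of these 18 named genes ended when 1 library was left out (S100a4, S100a16, Lgals3, 1110067D22Rik, Nrp1, Capg, Tagln2, Lsp1, Lcp1 and Nes), with adjusted p-values up to 0.132 over all edgeR and DESeq2 settings run. Their direction held in every setting, and the log2 fold change of S100a4, for example, ran from 0.98 to 1.44 and that of Nes from 0.72 to 1.19. The call stood in every setting for Anxa8 (with the limit of the count filter given above), Anxa11, Anxa4, Lgals8, Lgals3bp, Fn1, Itgb1 and Krt8.

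At promoters none of 74 related genes passed the threshold in edgeR, beside 0.235% of all promoters. An unadjusted p under 0.05 was given to 13 of them by edgeR, beside 2924 of all 20891 promoters. The DESeq2 test called 0 of them, with 9 under the unadjusted threshold beside 1578 of all promoters. Without high-fat-diet replicate 2, 8 passed (S100a3, S100a4, S100a5, Lgals3, Ptprc, Tagln2, Coro1a and Lsp1), where 3.5% of all promoters did. S100a5 is next to S100a6 in the RefSeq gene order, so its promoter may not be independent of that gene of the set.

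The genes nearest in pattern to Lgals1 and Anxa2 were found from log2 CPM centred on each gene's own mean over the 6 mRNA libraries, by the smallest root mean square difference among tested genes. For Lgals1 they were Gpr98 (0.20), Acot11 (0.28), H2-Q1 (0.29), Pcp4l1 (0.30) and Clec4e (0.31). Acot11 is an acyl-CoA thioesterase and Clec4e a macrophage lectin receptor. Clec4e was near the floor, at 0.09, 0.05 and 0 CPM on chow and 0.51, 0.51 and 0.76 CPM on the high-fat diet. For Anxa2 they were Wfdc2 (0.15), Lass6 (0.17), Cd36 (0.18), Gm6484 (0.19) and Abcb1a (0.19). Cd36, the fatty acid translocase, was at 83.0, 97.4 and 84.3 CPM on chow and at 151, 185 and 347 CPM on the high-fat diet, with the third library highest as in Anxa2. Lass6 encodes a ceramide synthase and Abcb1a a drug exporter. Of the other 9 genes of the set, Tmsb10 was nearest to Anxa2, at place 37 with a difference of 0.32, and Anxa2 was nearest to Lgals1, at place 164 with a difference of 0.77. Many genes separate the diets in the same 6 libraries, so these places describe likeness only.

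By the RefSeq gene order of GRCm38.p6, S100a10 and S100a11 are next to each other on chromosome 3 with 0 protein-coding genes between them, and S100a6 is on the same chromosome with 59 between it and S100a11. The adjacent pair had log2 fold changes of −0.15 and 0.67 in mRNA and of −0.10 and 0.24 at promoters. The set had 18 other protein-coding neighbours, of which 8 were tested, 1 rose and 3 fell, with a median log2 fold change of −0.13. Of all tested genes 18% rose and 17.6% fell, and nothing is read from so few neighbours. Ice2, next to Anxa2, had −0.50 (edgeR adjusted p = 0.0117), Kcmf1, next to Tmsb10, had −0.60 (edgeR adjusted p = 0.00168) and Nol12, next to Lgals1, had 0.40 (edgeR adjusted p = 0.0898). The neighbours were looked up after the values of the 10 genes were seen.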

How the data were processed

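Liver mRNA and H3K27ac at gene promoters were analysed from the raw counts per gene and per promoter that the authors deposited, 1 table row per symbol. Per the submitters' processing notes, the tools were TopHat 1.4.0, HTSeq, Bowtie 0.12.7, MACS 1.4.0rc2, bedtools and DESeq2 1.0.18 on mm9; their roles and the promoter width are not given in the sources used here. The authors' deposited tables also give log2 fold changes, printed only where named. Each count table was fitted whole with edgeR 4.0.16 in R 4.3.3 (filterByExpr by diet, TMM, quasi-likelihood F test with diet as the only term, two-sided, Benjamini-Hochberg, threshold 0.05). Rose and fell are used of genes past it, as high-fat diet against chow. The fit was tested on simulated data. Alternatives were DESeq2 1.42.0, its size factors, total counts, no filter, leaving out each library and a replicate block.

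The 10 genes and all lists were chosen with earlier results of these data known. All 10 genes are named, as are up to 3 genes past the threshold with the largest increase and up to 3 with the largest decrease in each related list, the leading gene of marker lists used, and the 5 genes most like Lgals1 and Anxa2. The genes S100a8 and S100a9 are in both the neutrophil and the S100 list, and Krt7 and Krt19 in both the cholangiocyte and the intermediate filament list. Replicate numbers were not used as pairs: the correlation of the deviations of same-numbered mRNA libraries was 0.04, −0.04 and 0.14, and of H3K27ac libraries 0.09, −0.01 and 0.04. Reads have no molecular identifiers. Peaks of H3K4me1, H3K27ac and H3K4me3 are given on mm9 without gene names and were not analysed here.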

Additional observations from a re-analysis of the deposited data

How the results depend on the processing

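The 10 genes kept the sign of their mRNA and promoter medians under all alternatives run. The mRNA median of 0.76 ran from 0.28 to 1.03 when 1 library was left out, and the promoter median of 0.28 from 0.13 to 0.40. Of 220 single values of the 10 genes under alternatives, 2 moved by more than the spread within diets, both without high-fat-diet replicate 3 (Anxa2 mRNA 1.12 and S100a11 mRNA 0.12). In mRNA 4590 genes were called, 2899 without chow replicate 2 and at most 5163 without high-fat-diet replicate 1. Related mRNA genes called numbered 21, and 10 to 25 with 1 library left out, the fewest without chow replicate 2 (leaving out chow replicate 1 or high-fat-diet replicate 2 gave 13). Total counts gave 2805 mRNA genes higher and 1646 lower in place of 2319 and 2271. Promoters called numbered 49, and from 0 (without chow replicate 2, 2431 at an unadjusted p under 0.05) to 736 (without high-fat-diet replicate 2) with 1 library left out. Leaving out chow replicate 1 gave 1, chow replicate 3 gave 7, the first high-fat-diet library 95 and the third 8. Related promoters called ran from 0 to 8. With the replicate block, 4462 mRNA genes, 470 promoters and 3 related promoters (S100a3, S100a4 and Coro1a) were called. The pairing of numbers is not supported by the labels or by the correlations, and the cause of that change was not tested. Of 198 values of the named related genes, 159 stayed past the threshold and 39 did not. Alternatives planned for H3K4me1 and H3K27ac union peaks were not run, because those peaks were not tied to genes.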
